A study of Conyza sumatrensis with 22 samples.

Results

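Of 45437 gene models of Conyza sumatrensis (Sumatran fleabane), 80 had fewer transcripts in leaves 5 h after the herbicide 2,4-D in both populations that are sensitive to it. They were chosen by their TPM values (a transcript level scaled to transcript length and to the sum of the library). In populations S and T separately, the untreated mean had to be at least 1 TPM, the treated mean at most 0.6 times the untreated mean, and the highest treated library below the lowest untreated library. Values in S and T are therefore a description of the genes and are not tested. The 7 libraries of the resistant population R had no part in the choice.

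RNA with polyA tails from leaves was sequenced in 22 libraries. Population R is labelled resistant, and S and T sensitive. Untreated leaves were taken before spraying (R, 4 libraries; S, 3; T, 4). Treated leaves were taken 5 h after spraying with 2,4-D (R, 3 libraries; S, 4; T, 4), and the dose of active ingredient was 1005 g on each hectare. There was no mock spray, so treatment, spraying and time of sampling cannot be told apart. There was 1 resistant population, so resistance and other traits of R cannot be told apart either. The labels do not say whether libraries came from separate plants, and p-values then measure only the spread between these libraries, part of which may be technical.

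2,4-D is a synthetic auxin. Auxin binds receptors that mark Aux/IAA repressor proteins for destruction, which frees auxin response factors, some of which activate and others repress their target genes. Rapidly induced targets are the best known part of the response, but auxin also lowers many transcripts, among them a family of dormancy-associated and auxin-repressed genes. In broadleaved weeds, excess auxin also raises ethylene and abscisic acid, and abscisic acid closes stomata and slows growth and photosynthesis. The deposited identifiers carry no gene names, so none of these roles can be assigned to a gene below, and the leaf label was not checked against cell type markers.

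Libraries held 19.2 M to 24.41 M assigned reads. Treated R library 1 had the lowest median correlation of log2 CPM with its group, at 0.948, against 0.955 to 0.983 for the other 21 libraries. This library decides much of what follows, and values are therefore given library by library. Its population label was checked, after its values were seen, with genes that untreated libraries use in R alone or in S and T alone (at least 1 TPM in every library of one side, under 0.1 TPM in every library of the other). All 7 genes of R were at 1 TPM or more in each of the 3 treated R libraries, and at that level in at most 1 gene of the 7 in any treated S or T library. Of the 14 genes of S and T, 0 reached 1 TPM in any treated R library, against 13 or 14 in each treated S or T library. By these genes library 1 matched R and not S or T. Whether single plants of R differ in resistance was not tested.

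The 80 genes spanned a wide range of levels. Untreated means ran from 1.05 to 382 TPM in S and from 2.01 to 224 TPM in T, with medians of 15.1 and 16.8 TPM. The median level over both populations, 14.6 TPM, was close to that of all 16873 genes with an untreated mean of at least 1 TPM in S and in T, 14.8 TPM. These 16873 genes serve as the background below. Of the 80 genes, 51 reached 10 TPM, 10 reached 50 TPM and 6 reached 100 TPM. Together the 80 genes made up 2542 ± 319 TPM in untreated S (SD, n = 3) and 1063 ± 247 TPM in treated S (n = 4). They made up 2520 ± 235 TPM in untreated T and 990 ± 289 TPM in treated T (n = 4 each). In leaf RNA, fewer cells of a type and less RNA per cell cannot be told apart, so a lower level is not tied to either.

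On the TPM scale the ratio of treated to untreated mean was lower in T than in S for 63 of the 80 genes. The median ratio was 0.475 in S, with the middle of the genes between 0.383 and 0.547, and 0.366 in T, between 0.267 and 0.462. TPM of other genes also moved in T. The background genes had a median ratio of 0.793 in T, against 0.977 in S, and 16.9% of them were at or below 0.6 in T, against 5.02% in S. Most other transcripts were thus also lower in treated T on this scale. Counts scaled by TMM, a method that aligns the bulk of the genes between libraries, gave background medians of -0.03 to 0.02 on the log2 scale in the treated T libraries. On that scale library medians of the 80 genes lay between -0.66 and -1.31 in treated T and between -0.79 and -1.58 in treated S. There the ratio was lower in T in 44 genes and lower in S in 36, with medians of 0.447 and 0.474, so most of the deeper loss in T on the TPM scale was not seen on this one. Across the 80 genes, a larger loss in S went loosely with a larger loss in T (Pearson r of log2 ratios 0.52, Spearman rho 0.45), a description over genes chosen on both.

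Members just inside the ratio limit stood at 0.597 and 0.596 in the population with the higher ratio, and the nearest genes just outside stood at 0.602 and 0.605. Of the genes past every other condition, 26 lay between 0.6 and 0.65. In 22 members the highest treated S library came within 10% of the lowest untreated one, and in T this held for 9. No gap thus separates the 80 genes from those just outside.

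**Figure D1:**
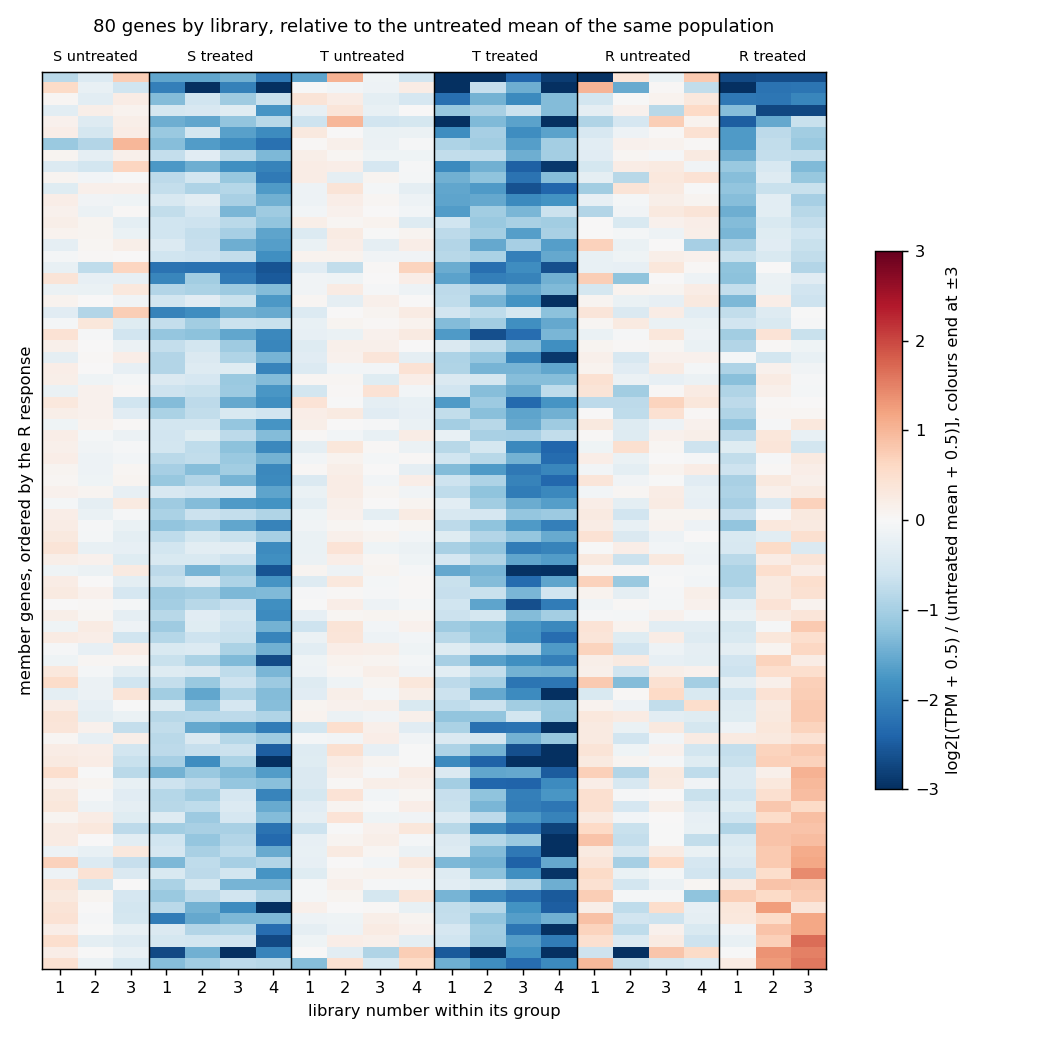
Each row is 1 of the 80 genes, ordered by the response of R, and each column is 1 of the 22 libraries, grouped by population and treatment. Colour gives log2 of TPM (plus 0.5) over the untreated mean of the same population. Treated S and T columns are blue by the rule, treated R library 1 is mostly blue, and treated R libraries 2 and 3 hold both colours.

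The gene with the lowest ratio in both populations, among those with at least 10 TPM in each, was g3201, a short model of 201 coding bases. In S it stood at 23.1, 19.7 and 16.9 TPM untreated and at 2.64, 7.03, 0 and 4.68 TPM treated. In T it stood at 10.6, 8.34, 5.45 and 17.9 TPM untreated and at 1.42, 0, 2.63 and 0 TPM treated. In R it stood at 4.46, 0, 13 and 10.8 TPM untreated and at 7, 18.9 and 21.1 TPM treated. Treated R libraries 2 and 3 were thus higher than any untreated R library, while library 1 lay among them. These levels rest on few reads because the model is short, with 28 reads in untreated T and 2 in treated T, a ratio of 0.0707 with an exact binomial 95% counting interval of 0.00817 to 0.281. In R its log2 fold change was 1.02 (SE 0.79, edgeR adjusted p = 0.442).

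Gene g16319, of 357 coding bases, had the next lowest ratio in S at this level and was the most abundant of the 80 in untreated S and T. In S it stood at 327, 226 and 593 TPM untreated and at 82.2, 80.6, 81.1 and 63.1 TPM treated. In T it stood at 175, 134, 230 and 354 TPM untreated and at 79.2, 46.4, 61.2 and 35.4 TPM treated. The treated mean was 76.7 TPM in S (SD 9.11) and 55.5 TPM in T (SD 19), and the untreated levels of both populations were widely spread. In R it stood at 166, 164, 247 and 198 TPM untreated and at 84, 194 and 105 TPM treated, so that treated library 2 lay among the untreated ones. Its log2 fold change in R was -0.64 (SE 0.36, edgeR adjusted p = 0.253).

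Gene g5088, of 1872 coding bases and with 2 transcript models, had the next lowest ratio in T at this level. In S it stood at 40, 38.5 and 20.7 TPM untreated and at 16.3, 8.73, 17 and 2.78 TPM treated. Its T libraries stood at 28.4, 43.3, 38.8 and 36.7 TPM untreated and at 9.36, 6.46, 2.43 and 1.52 TPM treated. In R it stood at 28.3, 24.8, 23 and 18.2 TPM untreated and at 14.7, 39.3 and 38.7 TPM treated. Treated R library 1 lay below all untreated R libraries and the other two above all of them, and the log2 fold change of 0.26 (SE 0.47, edgeR adjusted p = 0.789) averages over this disagreement. Its reads were split between transcript models by estimate in 9 libraries.

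The second most abundant gene in untreated S and T was g30750, of 438 coding bases. In S it stood at 146, 100 and 310 TPM untreated and at 45.5, 50.2, 68.1 and 64.5 TPM treated. In T it stood at 157, 213, 221 and 250 TPM untreated and at 141, 124, 146 and 89.9 TPM treated, close to overlap between treatments. In R it stood at 433, 250, 394 and 270 TPM untreated and at 200, 258 and 332 TPM treated. Treated and untreated R overlapped, and the log2 fold change was -0.41 (SE 0.32, edgeR adjusted p = 0.444).

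**Figure D2:**
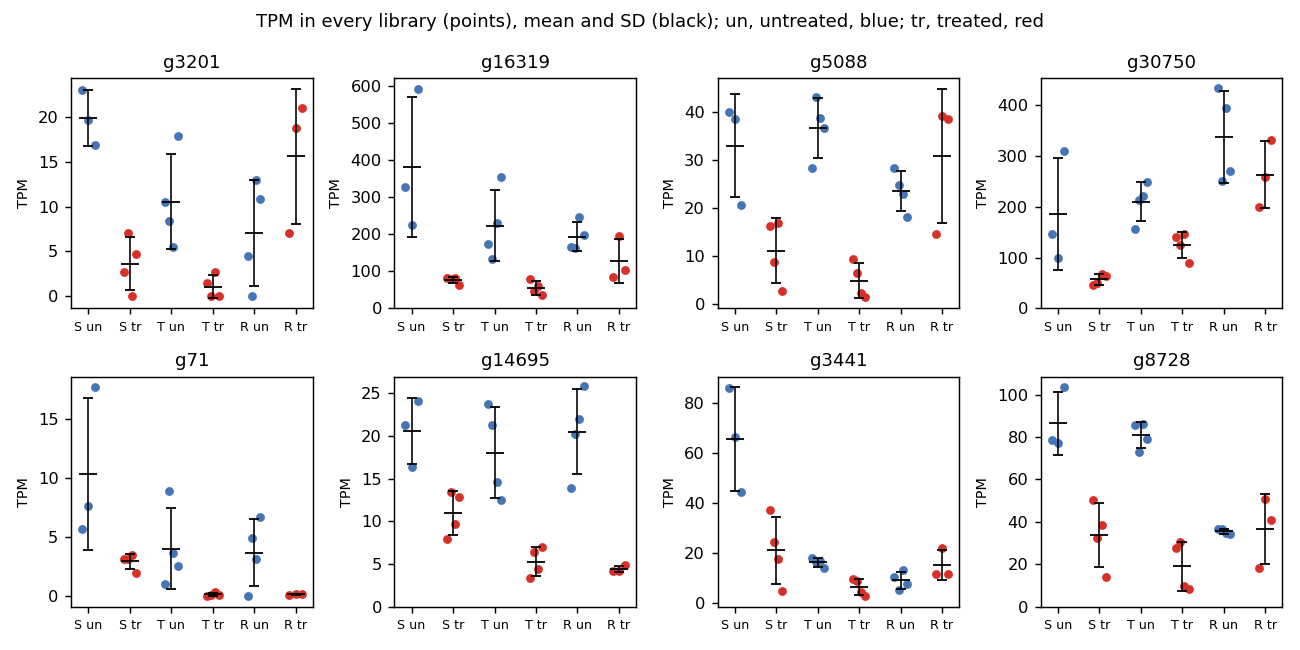
TPM of 8 of the genes in every library, with the mean and SD of each group in black. Untreated libraries are blue and treated ones red, in the order S, T, R. Treated R points are spread widely in g5088 and g8728, from 14.7 to 39.3 TPM and from 18.3 to 50.7 TPM, and lie close together in g14695, from 4.17 to 4.89 TPM.

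Whether these genes were also lower in treated R was tested by comparing R libraries, which had no part in the choice. The spread in this test was estimated over all 22 libraries, among them the 15 of S and T on which the genes were chosen. By edgeR's quasi-likelihood test over all 22627 tested genes, 12 of the 80 fell in R and 0 rose (adjusted p under 0.05). Of all tested genes, 7.03% fell and 9.37% rose. The count of 12 depends on the fit and on single libraries. It was 5 with only R libraries in the model (background 1.78%), 3 with the replicate number as a block (background 0.787%) and 5 without treated R library 1 (background 5.05%). At an unadjusted p under 0.05, 17 were lower and 3 higher. DESeq2 called 14 lower (background 7.88%) and 0 higher (background 11.4%). The rule's own 3 conditions were met in R by 8 of the 80 genes (10%), against 3.82% of the 18184 genes with an untreated R mean of at least 1 TPM. Without treated R library 1 they were met by 6 of the 80 genes, against 6.34% of those 18184 genes. Treated R libraries all lay below the untreated ones in 9 of the 80 genes (background 8.85%) and all above in 1 (background 12.0%). The first of these shares is near the background and no result about the 80 genes.

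The 80 genes went both ways in R. The median ratio of treated to untreated mean TPM was 0.957, with 43 genes (53.8%) below 1 and 37 above. Background genes had a median of 1.02, and 47.7% of them were below 1. Ratios of the 80 genes ran from 0.0414 to 3.21. In 16 of the 80 (20%) the mean ratio was 0.6 or less, against 6.92% of background genes. In 72 of the 80 it was higher than in both S and T, which the rule favours by holding ratios there to at most 0.6. For treated against untreated R, the 95% interval of the log2 fold change lay above -0.74, the log2 of the limit of 0.6, in 38 of the 79 tested genes. A loss of that size thus lay outside their intervals. These intervals use the spread over all 22 libraries, with S and T among them. They also rest on TMM-scaled counts, while the rule's limit is a ratio of mean TPM. In 29 further genes the interval reached that limit and no fall was called. In 24 of these it also held 0, so that the data do not tell a loss from none, and in 5 it lay wholly below 0 before adjustment over all genes. Across the 80 genes, ratios in R had Spearman correlations of 0.01 with S and 0.02 with T, and log2 ratios had Pearson correlations of 0.21 and 0.13, as a description across genes. The rule holds the S and T ratios to at most 0.6, and so narrow a range can lower these correlations. Low values here thus do not show that the responses are unrelated.

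**Figure D3:**
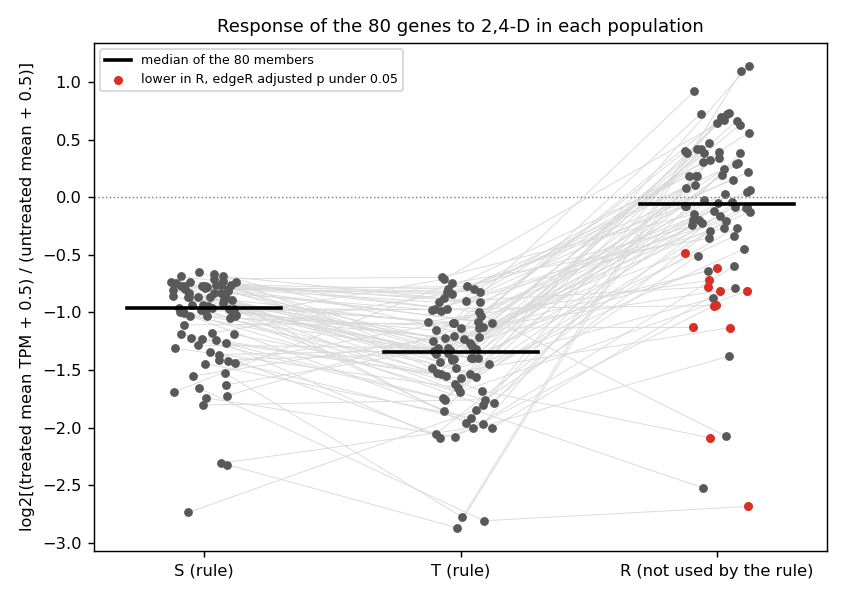
Each point is 1 of the 80 genes and gives log2 of the treated over the untreated mean TPM (plus 0.5) in S, T and R, with thin lines joining the same gene and black bars at the medians of -0.97, -1.34 and -0.06. The 12 genes that fell in R by edgeR are red, and positions in S and T are fixed below zero by the rule.

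The 3 treated R libraries did not behave alike at these genes. Treated R library 1 lay below all 4 untreated R libraries in 52 of the 80 genes and above all of them in 1. Library 2 lay below in 13 and above in 27, and library 3 lay below in 17 and above in 38. Among background genes the shares below were 37.9%, 16.8% and 23.4% for libraries 1, 2 and 3, and the shares above were 22.5%, 35.2% and 33.4%. Library 1 was the lowest of the 3 treated R libraries in 73 of the 80 genes, against 52.9% of background genes.

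Set against the untreated R mean, the median log2 difference of the 80 genes was -0.71 in treated R library 1, 0.22 in library 2 and 0.26 in library 3. The same medians over background genes were -0.20, 0.11 and 0.05. Treated S libraries had medians of -0.82, -0.78, -0.96 and -1.73, and treated T libraries -0.79, -1.18, -1.79 and -1.81. Untreated R libraries themselves lay between -0.23 and 0.18. On TMM-scaled CPM the treated R medians were -0.63, 0.06 and 0.14, with background medians of -0.14, -0.07 and -0.06. On both scales library 1 lay well below the untreated R libraries, and on TMM-scaled CPM libraries 2 and 3 lay within their range of -0.16 to 0.14. Summed over the 80 genes, treated R held 1160, 2067 and 2173 TPM in libraries 1 to 3, and untreated R 2305, 1706, 2374 and 2045 TPM.

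Without treated R library 1 the median log2 ratio in R was 0.21, against -0.06 with all R libraries. The count of 12 also went to 7 without untreated R library 2, 3 or 4 (backgrounds 3.96%, 5.34% and 4.00%). It was 7 without treated R library 3 (background 3.35%). Without untreated R library 1, 14 fell (background 9.79%) and 4 rose (background 10.4%). What sets treated R library 1 apart was not tested.

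**Figure D4:**
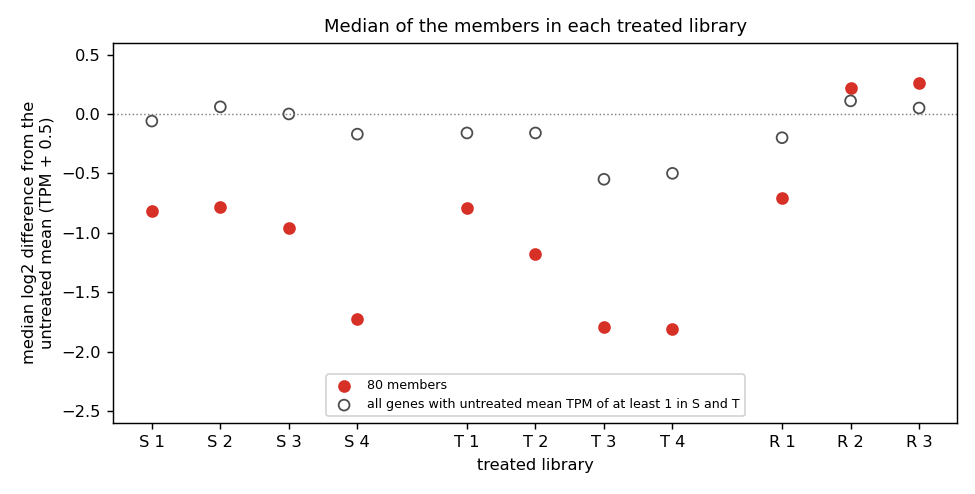
Filled points give, for each treated library, the median over the 80 genes of log2 TPM (plus 0.5) minus the untreated mean of the same population, and open points the same over 16873 background genes. The filled point of R library 1, at -0.71, lies near those of S libraries 1 and 2, and R libraries 2 and 3 lie at 0.22 and 0.26. The open point of R library 1 is lower, at -0.20, than those of S libraries 1 and 2, at -0.06 and 0.06.

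Treated libraries of S and T also differed in depth of response. Treated S library 4 was the lowest of its group in 65 of the 80 genes, against 48.0% of background genes. In T, library 1 was the highest in 57 genes, against 44.4% of background genes. There, library 3 was the lowest in 29 (background 43.6%) and library 4 in 41 (background 36.5%). The median coefficient of variation of the 80 genes was 31.9% in treated S, 44.2% in treated T and 40.8% in treated R. Background genes had 20.1%, 24.4% and 20.4% in these groups. In untreated leaves the 80 genes had 20.5%, 17.0% and 27.8% in S, T and R, against 22.1%, 13.4% and 19.6% in the background. Libraries of a treated group thus spread more at these genes than at genes at large, and the choice of genes by low treated values bears on the S and T shares of this.

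The 12 genes that fell in R had ratios of treated to untreated mean from 0.0414 to 0.705 and log2 fold changes from -4.66 to -0.61. Their libraries did not overlap between treatments in 7. Treated library 1 lay below all untreated R libraries in 11 of them, library 2 in 7 and library 3 in 10. In the 67 genes tested and not called, library 1 did so in 40, library 2 in 5 and library 3 in 6. Background shares were 37.9%, 16.8% and 23.4%. Genes were called or not on these same R libraries, so these counts are partly built in and are a description only. The 12 genes were more abundant than the uncalled ones, with a median untreated level in S and T of 37.0 TPM against 13.7 TPM. A change is called more readily in genes with many reads, so this difference is not read as a trait of the 12. Their median ratios in S and T, 0.507 and 0.376, were close to the 0.473 and 0.364 of the uncalled genes. The rule holds these ratios to at most 0.6 in both sets, so some closeness is built in.

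The largest fall in R was that of g71, of 1071 coding bases. In R it stood at 0.0379, 4.93, 3.13 and 6.67 TPM untreated and at 0.137, 0.162 and 0.159 TPM treated. In S it stood at 5.73, 7.66 and 17.7 TPM untreated and at 3.17, 3.18, 3.47 and 1.97 TPM treated. Its T libraries stood at 1.01, 8.88, 3.65 and 2.53 TPM untreated and at 0, 0.0817, 0.376 and 0.126 TPM treated. Treated R and T were almost without transcripts while treated S kept a low level, and untreated R library 1 was lower still than the treated R ones. Its log2 fold change in R was -4.66 (SE 1.14, edgeR adjusted p = 0.00852). This call was lost with only R libraries in the model (adjusted p = 0.0658) and with the replicate block (adjusted p = 0.0754).

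Gene g14695, of 561 coding bases, fell with little spread in R. It stood at 13.9, 20.2, 22 and 25.8 TPM untreated and at 4.25, 4.17 and 4.89 TPM treated, so that the groups lay far apart in every library. Its log2 fold change was -2.28 (SE 0.33, edgeR adjusted p = 0.000134). In S it stood at 21.3, 16.4 and 24.1 TPM untreated and at 8, 13.4, 9.65 and 12.8 TPM treated. In T it stood at 23.8, 21.3, 14.6 and 12.5 TPM untreated and at 3.34, 6.39, 4.43 and 7 TPM treated. The untreated level was alike in the 3 populations, and the ratio in R, 0.217, was below those of S and T, 0.533 and 0.293. The difference between the populations in this response was not tested, because S and T values chose the gene. The other 10 genes that fell in R had log2 fold changes from -1.27 to -0.61.

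A single gene, g38393, named after its values were seen, had all treated R libraries above all untreated ones. It stood at 5.14, 2.66, 3.91 and 5.03 TPM untreated and at 5.18, 5.23 and 5.88 TPM treated in R, with the lowest treated value just above the highest untreated one. Its log2 fold change in R was 0.30 (SE 0.20, edgeR adjusted p = 0.367). In S it stood at 4.68, 3.67 and 5.08 TPM untreated and at 2.33, 3.19, 2.26 and 1.88 TPM treated. Its T libraries stood at 5.28, 5.16, 6.41 and 5.08 TPM untreated and at 3.96, 3.63, 1.76 and 2.2 TPM treated. Gene g10506, also named after its values were seen, had too few reads for the test in R, with 15 reads untreated and 1 treated, a ratio of 0.0965 with an exact binomial 95% counting interval of 0.00229 to 0.627. In S it had 5 reads untreated and 3 treated, a ratio of 0.433 with a counting interval of 0.0672 to 2.22, so its place among the 80 rests on few reads. These counting intervals cover counting error only.

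Median ratios differed little between levels. The 10 genes of at least 50 TPM had median ratios of 0.503 in S, 0.393 in T and 0.910 in R. The 41 genes from 10 to 50 TPM had 0.473, 0.364 and 0.947, and the 29 genes under 10 TPM had 0.466, 0.353 and 1.02. Of the genes that fell in R, 2, 8 and 2 came from these classes. The shares of all genes called at these levels were not counted, so these counts are a description only.

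Before treatment, levels of the 80 genes were related but not equal between populations. Log2 untreated means had Pearson correlations across the 80 genes of 0.89 for S and T, 0.89 for R and S and 0.95 for R and T. In 48 genes the untreated R mean was within 1.5 times the mean of S and T. It was below both sensitive means in 46 genes, between them in 26 and above both in 8. High untreated values in S and T helped a gene into the list, so a lower level in R is partly built in and is given as a description only. The median ratio of untreated R to untreated S was 0.883 and to untreated T 0.709, against 1.04 and 0.904 over background genes.

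Libraries of untreated R lay all below those of untreated S in 15 of the 80 genes (background 11.3%) and all above in 6 (background 15.2%). Against untreated T they lay below in 23 (background 18.2%) and above in 3 (background 5.29%). These comparisons share the R libraries. Against all 7 untreated libraries of S and T they lay below in 9 (background 4.20%) and above in 0 (background 2.50%). Untreated S lay above untreated T in 8 genes (background 9.13%) and below in 20 (background 27.9%), shares near or under the background. In 12 genes the untreated R mean was no higher than the higher of the treated means of S and T. The share among background genes was not counted and the rule holds these treated means low, so this count is a description only.

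Gene g3441, of 915 coding bases, had the lowest untreated R level relative to S and T among genes of at least 10 TPM whose libraries did not overlap. It stood at 10.1, 5.05, 13 and 7.38 TPM in untreated R, at 86, 66.5 and 44.6 TPM in untreated S and at 18, 16.4, 16.5 and 13.7 TPM in untreated T. Treated libraries stood at 11.5, 21.8 and 11.7 TPM in R, at 37.2, 24.3, 17.5 and 4.7 TPM in S and at 9.5, 8.66, 4.32 and 2.49 TPM in T. Untreated R was 0.217 times the mean of S and T, and 0.55 times the mean of T alone, with all R libraries below all T libraries. Its log2 fold change in R was 0.66 (SE 0.44, edgeR adjusted p = 0.359).

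Gene g8728, of 1326 coding bases, separated R from both sensitive populations more evenly. Untreated R stood at 36.6, 36.8, 35 and 34.2 TPM, untreated S at 78.6, 77 and 104 TPM and untreated T at 85.6, 73.1, 86.1 and 79 TPM. Treated R stood at 18.3, 50.7 and 41.1 TPM, treated S at 50.2, 32.6, 38.7 and 13.9 TPM and treated T at 27.8, 30.5, 9.88 and 8.36 TPM. The untreated R level was thus close to that of treated S, and the treated R libraries lay on both sides of it. Its log2 fold change in R was -0.09 (SE 0.36, edgeR adjusted p = 0.917).

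After treatment the order was turned, as the rule favours for S and T. The treated R mean was above both treated sensitive means in 66 of the 80 genes. The median ratio of treated R to treated S was 1.76 and to treated T 1.94, against 1.1 and 1.16 over background genes. All treated R libraries lay above all 8 treated libraries of S and T in 13 genes (background 12.1%) and below in 0 (background 5.48%). The first share is close to the background. Treated S lay above treated T in 4 genes (background 14.0%) and below in 7 (background 8.92%).

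**Figure D5:**
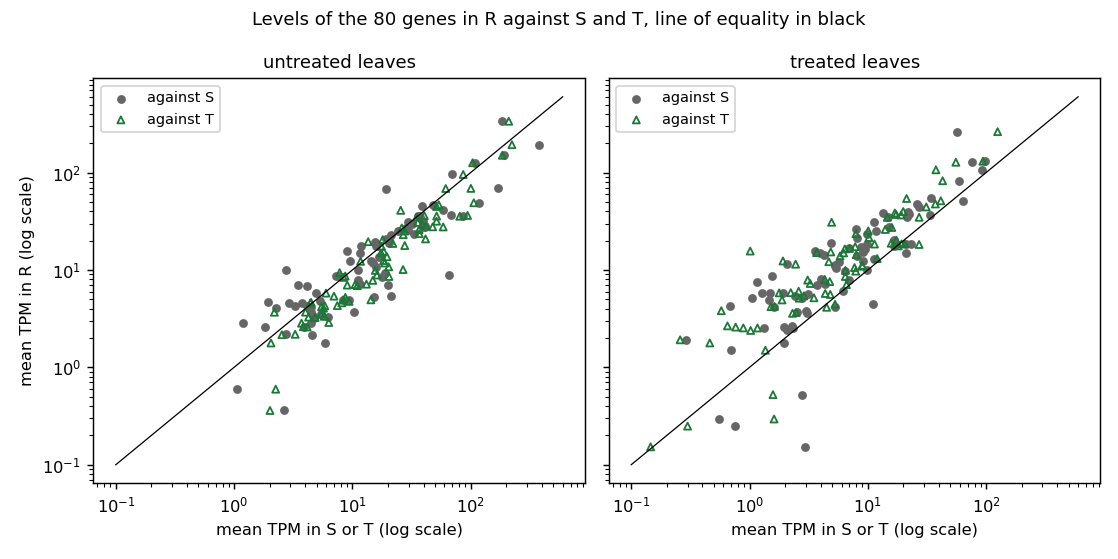
Mean TPM of the 80 genes in R (vertical, log scale) against S (filled circles) and T (open triangles) (horizontal, log scale), for untreated leaves on the left and treated leaves on the right, with the line of equality. In untreated leaves 46 genes have an R mean below both sensitive means, and in treated leaves 66 have an R mean above both.

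With the rule applied to 1 population at a time, 279 genes qualified in S, 1985 in T and 695 in R, lists from libraries that no other list used. S and T shared the 80 genes, which is 28.7% of the S list and 4.03% of the T list. R and S shared 21 genes, 7.53% of the S list and 3.02% of the R list. R and T shared 82 genes, 4.13% of the T list and 11.8% of the R list. All 3 lists shared 8 genes. Among genes of at least 1 TPM in both untreated populations of a pair, 33.6% of the S list was on the T list, against 10.4% of all such genes. For R the share on the T list was 12.3%, against 10.4% of all such genes, and the share on the S list was 3.34%, against 1.41%. The overlap of R and T was thus close to the background.

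Features that the rule did not use are given as a description. The longest coding model of the 80 genes had a median of 1126 bases, between 201 and 3549, against 1254 bases in the background and 1374 bases in 9391 background genes of similar level. Only 3 of the 80 genes (3.75%) had more than 1 transcript model, against 7.44% of the background. These 3 genes have 6 transcript models, of which 5 reached 1 TPM in untreated S and T, and all 5 had lower treated means in both populations. Reads were split between models by estimate in at least 1 library in 25 of the 80 genes (31.2%), against 49.0% of background genes, and in all libraries in 1 (1.25%), against 7.37%. Only 3 of the 80 have more than 1 model, so in most of the 25 the split was with models of other genes. Summing by gene does not remove such a split.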

How the data were processed

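Leaf RNA was sequenced in 22 libraries, with 1 table each. Per the file headers, for every transcript model the authors deposited estimated counts, TPM over effective transcript lengths, and lengths. The submitters' processing notes name Trimmomatic and Salmon. Their versions, the reference, its build and strandedness were not given in the sources used here, so overlapping or antisense genes cannot be told apart. Of 47916 models, 47817 have lengths divisible by 3, and lengths are called coding lengths.

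TPM was summed over the transcripts of a gene to choose members. Estimated counts were rounded and summed to 45437 genes, TMM-scaled (factors 0.837 to 1.12) and filtered with filterByExpr to 22627. The response of R was tested with edgeR 4.0.16 (robust quasi-likelihood F test, R 4.3.3) in 1 model of 6 group means over 22 libraries. P-values were adjusted by Benjamini-Hochberg over all tested genes. SE is the absolute log2 fold change over the square root of F, and the 95% intervals use it. TPM ratios on a log2 scale use a pseudocount of 0.5, which understates changes of low genes. The fit was tested on simulated data. DESeq2 1.42.0 served as an alternative.

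Libraries held 19.2 M to 24.41 M assigned reads, of which 26.1% to 41.7% lay on transcripts with an estimated count not whole within 5e-04. Replicates differed by more than sampling noise, with a chi-square per gene of at least 15.4 between libraries of a group, and none was merged. Identifiers carry no names, so genes are few by rule: at most 2 per direction with the lowest ratio in S or T (at least 10 TPM in both), the largest called changes in R (average log2 CPM of at least 1), the highest level, and the largest untreated differences of R (at least 10 TPM, no overlap). No rise in R was called and no gene was higher in untreated R by these conditions. Members, lists and tests were chosen with earlier results of these data known. The labels do not say whether replicate numbers pair libraries, and the main model held no replicate block.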

Additional observations from a re-analysis of the deposited data

Results flagged for a closer look

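Groups of 4 libraries were searched for a library far from the other 3, over 10 named genes and 2 summaries of the 80 genes, 48 groups in all. Chance flags about 1 group in 20, and 3 were flagged. Treated S library 4 was lowest for g16319, at 63.1 TPM against 80.6 to 82.2 TPM. The same library was at 0 TPM for g10506, against 0.682 to 0.814 TPM, values of 1 read each. Untreated T library 3 was highest for g38393, at 6.41 TPM against 5.08 to 5.28 TPM.

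In 1 of the 80 genes, g38393, every treated R library lay above every untreated one, while S and T went the opposite way by the rule. The difference between the populations was not tested.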

How the results depend on the processing

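The number of genes chosen, 80, became 44 with a ratio of at most 0.5 and 526 where libraries may overlap. On TMM-scaled CPM the rule gave 84 genes, 53 of them among the 80. Leaving out 1 library of S or T gave 60 to 388 genes, with 388 without untreated S library 3, 133 without treated S library 2, 125 without untreated T library 1 and 137 without treated T library 1. The list thus depends on single libraries. The 12 genes that fell in R became 5 with only R libraries in the model (background 1.78%) and 3 with the replicate block (background 0.787%). With 1 R library left out they were 5 to 14, with backgrounds of 3.35% to 9.79%. The count of rises, 0, was 0 to 4 with 1 R library left out, with backgrounds of 4.79% to 10.4%. Genes that meet the rule in R, 8 (background 3.82%), became 16 where libraries may overlap (background 7.77%). With 1 R library left out they were 6 to 14, with 14 without treated R library 2 (background 5.42%). Without treated R library 1 they were 6 of the 80 (background 6.34%). The median log2 ratio in R, -0.06, ranged from -0.22 to 0.21 with 1 R library left out and was -0.16 on TMM-scaled CPM. The log2 fold change of g8728 ranged from -0.34 without treated R library 2 to 0.19 without treated R library 1, where it turned direction, and the call of g71 was lost with only R libraries and with the block (-4.63 and -3.83, edgeR adjusted p = 0.0658 and 0.0754). The causes were not tested. With members chosen on TMM-scaled CPM, an alternative added after seeing the data, 10 of 84 fell (background 7.03%) and 0 rose (background 9.37%). The count of genes with a lower ratio in T than in S, 63, was 44 on TMM-scaled CPM, also added after seeing the data.

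Same-numbered libraries did not deviate together. In R the correlations of their deviations were -0.22, -0.01 and -0.05, and in S and T none was over 0.08. Differently numbered libraries of a population ranged from -0.48 to 0.49. With so few libraries these values cannot decide whether the numbers pair libraries, and the labels do not say. Reads limit genes of few counts such as g3201 and g10506.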

Other observations

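Identifiers carry running numbers, and 10 of the 80 genes lay within 10 numbers of another member, as 5 pairs. The median gap between neighbouring members was 266. Whether near numbers mean near positions in the genome is not given in the sources used here. Within the pairs, ratios in R were 0.790 and 3.21, 0.947 and 1.31, 0.781 and 0.515, 0.838 and 0.691, and 1.03 and 0.95. Differences within a pair were not tested. Coding lengths within a pair also differed, as in the pair of 2139 and 621 bases.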
